A study of Sus scrofa with 6 samples.

Results

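The enzymes that write, copy and remove DNA methylation, and the core of the Polycomb complex PRC2, were followed in the lung of piglets across birth. Of the 10 genes chosen by symbol (DNMT1, UHRF1, DNMT3A, DNMT3B, TET1, TET2, TET3, EZH2, SUZ12 and EED), 8 had a row among the 14579 mRNAs of the expression table. For TET1 the matched identifier had no row, and TET2 had no identifier with its symbol, so neither was analysed here. The samples were lungs of 3 fetal piglets, taken by caesarean the day before birth, and of 3 neonatal piglets, taken 2 days after birth, each from a different sow. All were untreated females of a cross between Tibetan boars and Meishan sows. RNA was depleted of ribosomal RNA and sequenced as 1 library per piglet, and levels are FPKM, that is, fragments scaled to transcript length and to the mapped reads of the library. Libraries are called Fetal1 to Fetal3 and Neonatal1 to Neonatal3. The samples were pieces of whole lung, so a change in the share of a cell type and a change in RNA per cell cannot be told apart.

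DNMT1 is the maintenance methyltransferase, which restores methylation on the new strand after DNA replication. UHRF1 binds hemimethylated DNA behind the replication fork and brings DNMT1 to it. DNMT3A and DNMT3B methylate sites that carried no mark, and the TET enzymes oxidise methylated cytosine, a step towards its removal. PRC2 methylates H3K27 and so helps to keep genes silent: EZH2 or its paralog EZH1 is the catalytic subunit, SUZ12 holds the complex together, and EED binds the methylated product and stimulates the enzyme. EZH2 is known as the form of dividing cells and EZH1 as the form that persists in resting tissue.

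Summed FPKM ranged from 339491 to 777982, the median mRNA had between 4.99 and 6.11 FPKM, and 3.02% to 5.68% of the mRNAs were listed at 0. The files give no read counts per gene, so the errors given are the spread between piglets. The surfactant genes of lung epithelium were abundant in every library, and SFTPC, the type II cell surfactant protein, averaged 3508 ± 369 FPKM before birth and 6373 ± 2291 FPKM after birth (SD over 3 piglets), without a call (limma adjusted p = 0.429). The airway marker SCGB1A1 set Neonatal2 apart, with 0.213 FPKM against 62.2 and 62.0 FPKM in the other neonatal libraries and 99.8 to 139 FPKM in the fetal libraries. Differences are neonatal minus fetal on the log2(FPKM + 1) scale, tested in limma with Benjamini-Hochberg adjustment over all 14579 mRNAs, and an adjusted p of at most 0.05 counts as a call. On this scale the change of a gene with low FPKM is understated. The median difference of all mRNAs was 0.13, and it was -0.0090 after median-of-ratios scaling, so a rise of this size carries no weight by itself.

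The members that passed the test were those of the maintenance arm. EZH2 fell just short of it (limma adjusted p = 0.0557), with a ratio of means of 2.67, against 2.52 for DNMT1. Of the 8 genes, 2 were called higher in the neonatal group (UHRF1 and DNMT1) and 0 were called lower. Over all mRNAs tested, 6.87% were called, 5.41% as higher and 1.45% as lower. Fetal and neonatal values were fully apart for 3 members, UHRF1, DNMT1 and EZH2, all higher in the neonatal group. Over all mRNAs this held for 30.5% of the mRNAs, with 20.9% higher and 9.64% lower. An unadjusted p under 0.05 was reached by the same 3 members and by 24.2% of all mRNAs.

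UHRF1 showed the largest change of the 8 genes. It stood at 2.57, 1.23 and 1.55 FPKM in Fetal1, Fetal2 and Fetal3, and at 18.4 FPKM in Neonatal1, 19.7 in Neonatal2 and 11.4 in Neonatal3. Every neonatal value lay far above the highest fetal one, and Neonatal3 was the lowest of its group. The mean went from 1.78 ± 0.703 to 16.5 ± 4.48 FPKM (SD, n = 3 each), which is 9.25 times higher. The log2(FC) was 2.64 (standard error 0.28, limma adjusted p = 0.00430), above that of 99.3% of all mRNAs. Its level moved from the 24.5th percentile of the fetal means to the 77.3rd percentile of the neonatal means. UHRF1 was called under all 13 alternative settings, with adjusted p between 0.00287 and 0.0401.

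DNMT1 rose less, from a higher start. Its fetal values were 8.69, 6.73 and 6.37 FPKM, and it reached 16.8, 18.9 and 19.3 FPKM in the neonatal libraries. The groups lay far apart and each was tight, with means of 7.26 ± 1.25 and 18.3 ± 1.33 FPKM (SD, n = 3 each). The ratio of the means was 2.52, and the log2(FC) was 1.23 (standard error 0.18, limma adjusted p = 0.0113). The call did not hold with every library left out: the adjusted p was 0.0660 without Fetal2, 0.0607 without Neonatal2 and 0.0540 without Neonatal3, while the log2(FC) stayed between 1.16 and 1.35 with any library left out. With the replicate number as a block it was 0.0555.

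**Figure D1:**
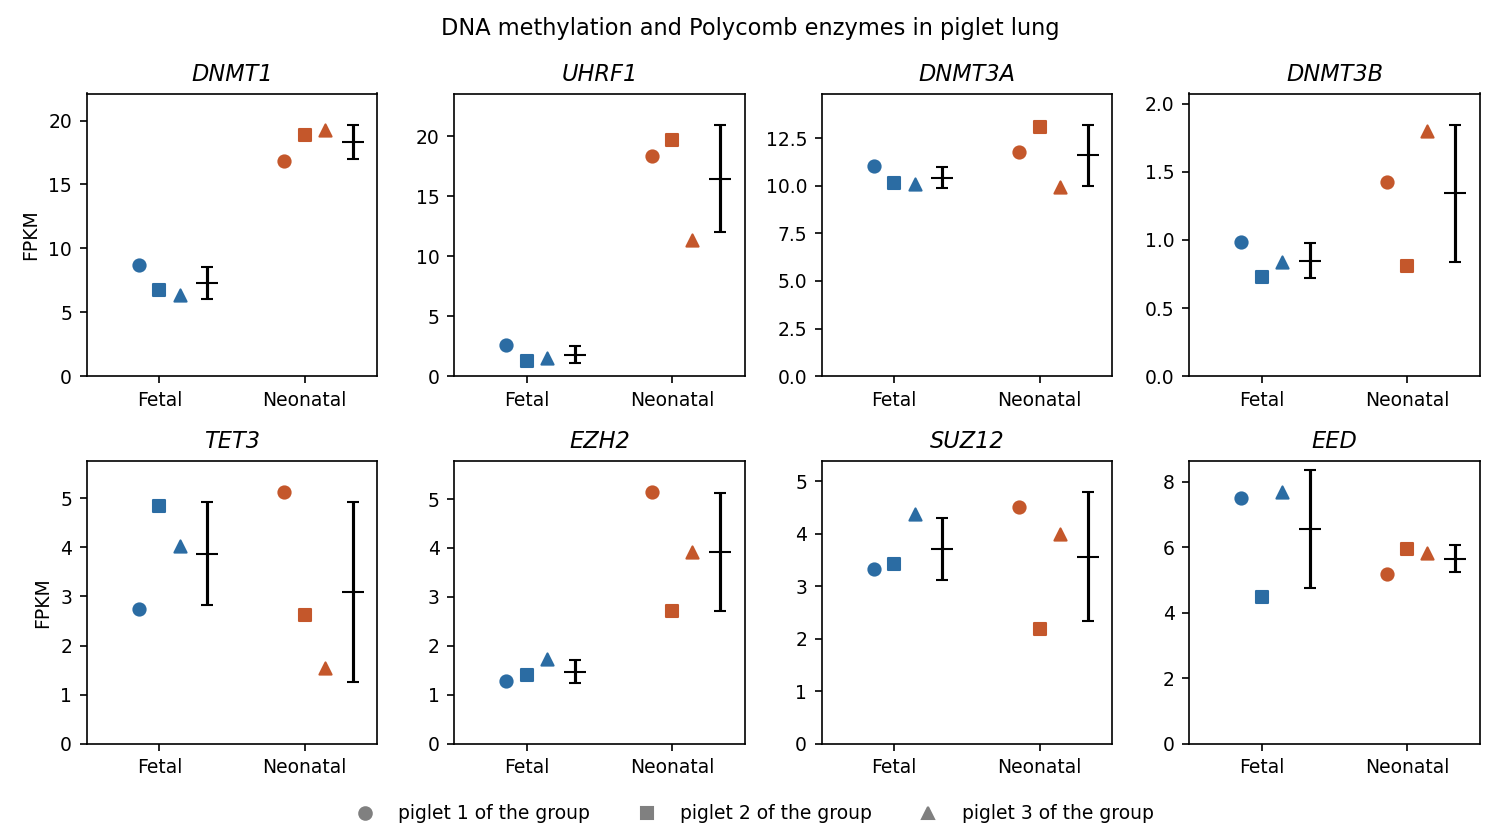
FPKM (vertical axes, each starting at 0 with its own scale) of the 8 measured genes in the 3 fetal (blue) and 3 neonatal (orange) libraries, with the group mean and SD in black. The same symbol in both groups does not mark the same animal. UHRF1, DNMT1 and EZH2 have no overlap between groups, and the other 5 genes overlap.

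The ratio of UHRF1 to DNMT1 was not a planned pair, follows from the values above and is given as a description. It was 0.296, 0.183 and 0.243 in the fetal libraries and 1.10, 1.04 and 0.589 in the neonatal libraries. In each fetal library UHRF1 thus had much lower FPKM than DNMT1, and in Neonatal1 and Neonatal2 it had slightly more. Neonatal3, with the highest DNMT1 and the lowest neonatal UHRF1, stood between.

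The de novo enzymes gave no call. DNMT3A had 11.1, 10.1 and 10.1 FPKM in the fetal libraries and 11.8, 13.1 and 9.93 FPKM in the neonatal libraries. It was the most abundant of the 8 genes before birth, its neonatal range enclosed the fetal one, and its log2(FC) was 0.14, close to the median of all mRNAs (95% interval -0.27 to 0.54, limma adjusted p = 0.667). Under median-of-ratios scaling the sign was negative, at -0.026, and under quantile normalization it was -0.045. DNMT3B was the lowest of the 8 genes in both groups, at 0.982, 0.729 and 0.836 FPKM before birth and 1.42, 0.806 and 1.80 FPKM after it. Neonatal1 and Neonatal3 lay above all fetal libraries but Neonatal2 did not, and the log2(FC) was 0.32 (95% interval -0.22 to 0.86, limma adjusted p = 0.433). A rise of DNMT3B by up to 0.86 on this scale thus lies within the interval. DNMT3L, the cofactor of the de novo enzymes that has no activity of its own, averaged 0.0852 FPKM before birth and 0.303 FPKM after it, without a call (limma adjusted p = 0.567).

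Set against each other within a library, the maintenance and de novo enzymes separated the groups. DNMT1 relative to DNMT3A, as a difference of log2(FPKM + 1), was -0.32, -0.53 and -0.59 in the fetal libraries and 0.48, 0.50 and 0.89 in the neonatal libraries. DNMT3A was thus the more abundant transcript in each fetal library and DNMT1 in each neonatal library. The change was 1.10, with p = 0.1 in an exact two-sided permutation test, which is the lowest p that 3 against 3 can give, and 0.15 adjusted over 3 pairs. DNMT1 made up 39.0% ± 2.61 of the summed FPKM of DNMT1, DNMT3A and DNMT3B before birth and 58.6% ± 3.24 after it (SD, n = 3 each). For DNMT3B relative to DNMT3A the change was 0.18 with overlapping groups (p = 0.7 in the exact permutation test, the same after adjustment), and it was -0.055 without Neonatal3. The pairs UHRF1 with UHRF2 and TET1 with TET3 could not be formed, since UHRF2 and TET1 were not matched.

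TET3, the only TET enzyme measured, varied most after birth relative to its mean. Its values were 2.75, 4.84 and 4.03 FPKM in the fetal libraries and 5.12, 2.63 and 1.54 FPKM in the neonatal libraries. The highest and the lowest value of all 6 libraries were both neonatal. The log2(FC) was -0.32 (standard error 0.35, 95% interval -1.13 to 0.49, limma adjusted p = 0.605), and it lay between -0.66 without Neonatal1 and -0.02 without Neonatal3.

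Of EZH2, SUZ12 and EED, the PRC2 genes among the members, only the catalytic subunit EZH2 differed without overlap. EZH1 and RBBP7, which are not members, also had no overlap and are given below. EZH2 had 1.28, 1.40 and 1.74 FPKM in the fetal libraries and 5.14, 2.72 and 3.91 FPKM in the neonatal libraries. The lowest neonatal value was well above the highest fetal one, and the mean was 2.67 times higher, at 1.47 ± 0.238 and 3.92 ± 1.21 FPKM (SD, n = 3 each). The log2(FC) was 0.97 (standard error 0.24, 95% interval 0.41 to 1.53), and the limma adjusted p was 0.0557, just above the threshold. Over the alternatives with all 6 libraries it ranged from 0.0458, with mRNAs above 1 FPKM in at least 3 samples, where EZH2 was called, to 0.115 with the replicate block. With 1 library left out it ranged from 0.0705 to 0.195.

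SUZ12 and EED gave no call. SUZ12 had 3.33, 3.41 and 4.38 FPKM before birth and 4.51, 2.18 and 3.99 FPKM after it, with a log2(FC) of -0.08 (95% interval -0.68 to 0.52, limma adjusted p = 0.875) that turned to 0.02 without Fetal3 and to 0.16 without Neonatal2. EED had 7.52, 4.49 and 7.67 FPKM before birth and 5.19, 5.95 and 5.82 FPKM after it, with a log2(FC) of -0.16 (95% interval -0.69 to 0.38, limma adjusted p = 0.707). For both genes the groups overlapped, and the upper end of each interval is under the estimate for EZH2.

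**Figure D2:**
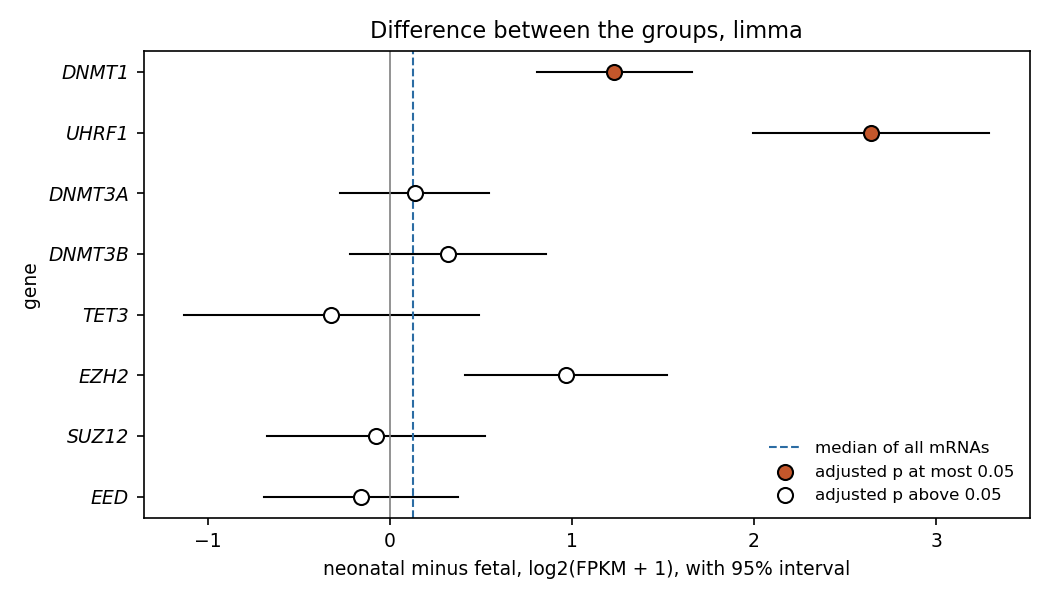
Neonatal minus fetal difference in log2(FPKM + 1) of the 8 genes (horizontal axis) with the 95% interval from limma; filled points have an adjusted p of at most 0.05, and the dashed line is the median of all mRNAs at 0.13. The intervals of UHRF1, DNMT1 and EZH2 lie above 0, and the intervals of the other 5 genes include it.

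EZH2 kept a narrow ratio to SUZ12 within each group. EZH2 per SUZ12 was 0.385, 0.409 and 0.397 in the fetal libraries and 1.14, 1.25 and 0.982 in the neonatal libraries. Neonatal2 had the lowest EZH2 and the lowest SUZ12 of its group, which left its ratio the highest. The ratio averaged 0.397 ± 0.0119 before birth and 1.12 ± 0.133 after it (SD, n = 3 each), and a scaling factor per library cannot change it. EZH2 per EED was looser, at 0.236 ± 0.0707 and 0.706 ± 0.268 (SD, n = 3 each), again without overlap. These ratios were chosen after the values had been seen and are given as a description.

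The paralog EZH1 stood lower after birth, without a call. It had 18.7, 16.7 and 16.0 FPKM in the fetal libraries and 8.70, 13.9 and 10.6 FPKM in the neonatal libraries, all of them lower. The log2(FC) was -0.61 (standard error 0.21, limma adjusted p = 0.129), and EZH1 was called in 1 alternative, under quantile normalization (limma adjusted p = 0.0400). EZH2 relative to EZH1 was -3.11, -2.89 and -2.63 on the log2 scale in the fetal libraries and -0.66, -2.00 and -1.23 in the neonatal libraries, a change of 1.58 with p = 0.1 in the same exact permutation test and 0.15 adjusted over 3 pairs. With any library left out, the change lay between 1.26 and 1.93. EZH2 made up 6.41%, 7.71% and 9.82% of the summed FPKM of EZH1 and EZH2 before birth, and 37.1%, 16.4% and 27.1% after it. EZH1 stayed the more abundant paralog in all 6 libraries, by 9.18 to 14.6 times before birth and by 1.69 to 5.12 times after it.

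**Figure D3:**
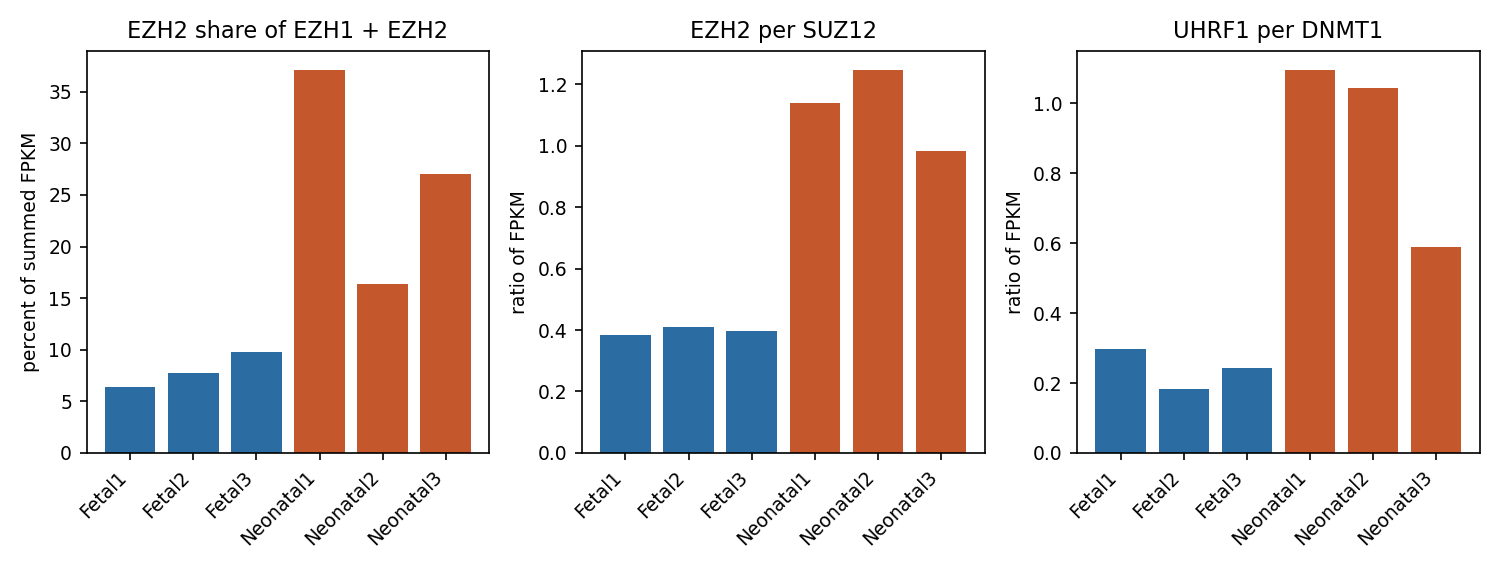
Shares and ratios within each library (bars, 1 per library, axes from 0; fetal blue, neonatal orange): EZH2 as a percent of the summed FPKM of EZH1 and EZH2, EZH2 per SUZ12 and UHRF1 per DNMT1. In each panel the 3 neonatal bars stand above the 3 fetal bars, and the fetal bars of EZH2 per SUZ12 lie between 0.385 and 0.409.

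The order of the 8 genes by FPKM shifted with these changes. Before birth it ran DNMT3A, DNMT1, EED, TET3, SUZ12, UHRF1, EZH2, DNMT3B. The neighbours whose ranges did not overlap were DNMT3A and DNMT1, SUZ12 and UHRF1, and EZH2 and DNMT3B. After birth it ran DNMT1, UHRF1, DNMT3A, EED, EZH2, SUZ12, TET3, DNMT3B, where the ranges of neighbours were separate only between DNMT3A and EED and between EED and EZH2. UHRF1 thus moved from sixth to second place.

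The partners of these enzymes were read from lists of 67 measured genes in 6 groups, of which 7 were called, 5 higher and 2 lower. That is 10.4% of the lists, against 6.87% of all mRNAs, and their median log2(FC) was 0.09, against 0.13. The data hold only mRNAs above 0.5 FPKM in at least 1 sample. CDCA7 and NEIL3, both called higher, passed this limit only through neonatal libraries. With 1 library left out, 0 to 5 genes of the lists were called. The calls over all mRNAs also fell in these fits, from 1001 to between 196 and 944.

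Among 12 measured partners and readers of DNA methylation, 2 were called, both higher in the neonatal group, and 10 were not. Over all mRNAs, 5.41% were called higher. HELLS, the chromatin remodeller that opens nucleosomal DNA to methylation, had 1.07, 1.29 and 1.17 FPKM in the fetal libraries and 3.65, 3.69 and 3.06 FPKM in the neonatal libraries (log2(FC) 1.04, limma adjusted p = 0.0207). CDCA7, which activates HELLS, rose to 2.70 ± 0.805 FPKM from 0.204 ± 0.0584 FPKM (SD over 3 piglets, log2(FC) 1.60, limma adjusted p = 0.0108). Its fetal values were all under the limit of 0.5 FPKM, so a fall could not have been seen for it. The calls of HELLS and CDCA7 were lost without Fetal1, Fetal2 or Neonatal2, and that of HELLS also without Fetal3 or Neonatal3 and with the replicate block. The MBD family genes MBD1, MBD2, MBD5 and MBD6 had log2(FC) values between -0.33 and 0.26, and MBD3 had 0.83 (limma adjusted p = 0.0728).

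Genes of the oxidation of methylated cytosine and its repair, with the cofactor supply and partners of the TET enzymes, gave 1 call among 10. Of all mRNAs, 6.87% were called. TDG, the glycosylase that cuts out oxidised cytosines, averaged 6.90 ± 0.574 FPKM before and 9.22 ± 1.43 FPKM after birth, and its log2(FC) was 0.36 (limma adjusted p = 0.271). NEIL3, a glycosylase of replicating cells, rose to 2.17 ± 0.891 FPKM from 0.172 ± 0.178 FPKM (SD over 3 piglets, log2(FC) 1.41, limma adjusted p = 0.0239), a call lost with any of the 6 libraries left out. The fetal values of NEIL3 were also all under 0.5 FPKM, so a fall could not have been seen. IDH1 and IDH2, which make the 2-oxoglutarate that TET enzymes use, had log2(FC) values of 0.49 and 0.84 and were not called.

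Of 9 genes of the supply of the methyl donor S-adenosylmethionine, 7 were lower and 2 higher by sign, with 1 call each way. Over all 14579 mRNAs, 8729 were higher and 5850 lower by sign, and 5.41% were called higher and 1.45% lower. AHCY clears the product that inhibits methyltransferases. It had 3.47, 2.999 and 2.14 FPKM in the fetal libraries and 17.7, 11.2 and 5.74 FPKM in the neonatal libraries (log2(FC) 1.59, limma adjusted p = 0.0467). The call was lost with 5 of the 6 libraries left out, all but Neonatal3, under both scalings and without the variance trend. MTR, which regenerates methionine, fell from 7.12, 6.995 and 6.32 FPKM to 2.85, 2.95 and 1.81 FPKM (log2(FC) -1.16, limma adjusted p = 0.0206). Its call was lost with the replicate block and with each library left out except Neonatal1. MAT2A, the donor's synthase outside the liver, had 19.6 ± 4.11 and 15.5 ± 9.58 FPKM (SD, n = 3 each; limma adjusted p = 0.501).

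Of 9 measured genes in the list of further PRC2 subunits, EZH1 and RBBP7 among them, PHF19 alone was called. Over all mRNAs, 6.87% were called. PHF19, which docks PRC2 on chromatin, had 1.62, 1.56 and 0.319 FPKM in the fetal libraries and 5.80, 3.20 and 4.83 FPKM in the neonatal libraries (log2(FC) 1.41, limma adjusted p = 0.0483). The call sat at the threshold and was lost in 11 of the 13 alternatives. Its close relatives PHF1 and MTF2 had log2(FC) values of -0.20 and 0.06. JARID2 averaged 6.34 FPKM before and 7.77 FPKM after birth, and RBBP7, a histone-binding subunit, 27.8 and 24.0 FPKM, in both cases without overlap and without a call (limma adjusted p = 0.381 and 0.469).

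Polycomb complex PRC1, which reads the mark of PRC2 and ubiquitinates histone H2A, gave 1 call among 20 genes, against 6.87% of all mRNAs. CBX7, a chromodomain subunit that binds methylated histone, fell from 5.91, 5.51 and 15.1 FPKM to 1.22, 0.145 and 1.81 FPKM (log2(FC) -2.22, limma adjusted p = 0.0319). All neonatal values were below all fetal ones, although Fetal3 stood far above the other fetal libraries. The log2(FC) was -1.80 without Fetal3, and the adjusted p lay between 0.0713 and 0.106 with any library left out. Another chromodomain subunit, CBX2, had 2.17 ± 0.198 and 3.37 ± 0.643 FPKM without overlap (SD, n = 3 each; limma adjusted p = 0.215). The catalytic subunits RING1 and RNF2 had log2(FC) values of 0.37 and 0.27, and BMI1 had -0.11, which was 0.064 without Neonatal1. PHC2 stood at 0.72 and PHC3 at -0.76, both without overlap and with limma adjusted p of 0.0703 and 0.0690. PHC2 was called without Neonatal1 (limma adjusted p = 0.0426) and PHC3 under quantile normalization (limma adjusted p = 0.0424).

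None of the 8 measured enzymes that take the Polycomb marks off again, or their partners, was called in limma, and 1 had an unadjusted p under 0.05, against 24.2% of all mRNAs. The H3K27 demethylase KDM6A had 15.7 ± 3.92 and 10.7 ± 2.34 FPKM (SD, n = 3 each; limma adjusted p = 0.239), and KDM6B had under 1 FPKM in both group means. BAP1, the histone H2A deubiquitinase, had a log2(FC) of 0.39 (limma adjusted p = 0.218).

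**Figure D4:**
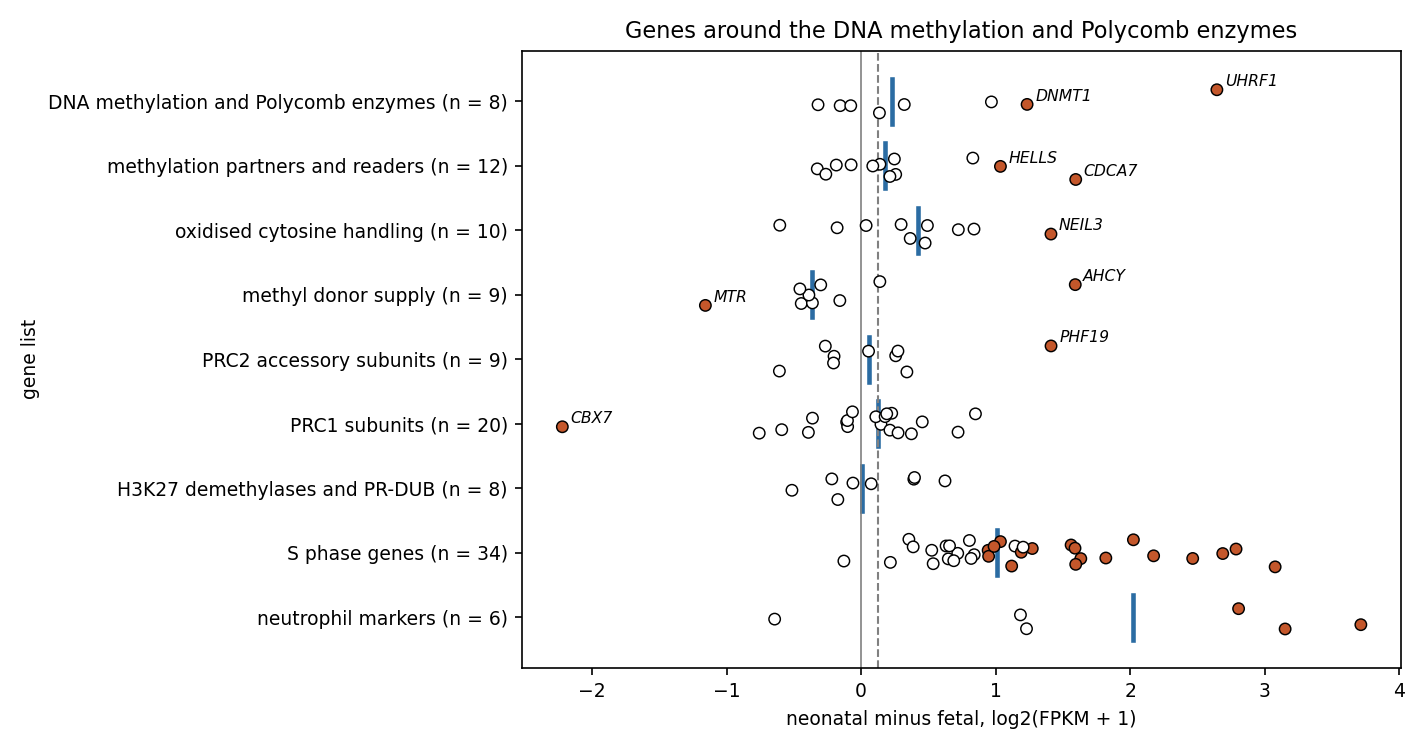
Neonatal minus fetal difference in log2(FPKM + 1) (horizontal axis) of each measured gene in 9 lists (vertical axis); filled points have an adjusted p of at most 0.05, blue bars are list medians and the dashed line is the median of all mRNAs. Only UHRF1 and DNMT1 are filled among the 8 enzymes, while 18 of 34 S phase genes and 3 of 6 neutrophil markers are filled.

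S phase genes and neutrophil genes moved with the groups in the same direction as UHRF1 and DNMT1. Of 34 measured S phase genes, among which HELLS and CDCA7 are counted as well, 18 were called higher and 0 lower, and the median log2(FC) was 1.01. Over all mRNAs, 5.41% were called higher and 1.45% lower, and the median was 0.13. Of the called S phase genes, CDCA7, CDC6, E2F8 and EXO1 passed the limit of 0.5 FPKM only through neonatal libraries. MCM4, MCM5, MCM2 and MCM3, subunits of the replicative helicase, had log2(FC) values of 3.08, 2.79, 2.69 and 2.46, and the call of MCM5 was lost without Fetal2, Neonatal2 or Neonatal3. With each gene set against its own fetal mean, the median S phase gene stood at 0.76, 1.18 and 1.15 on the log2 scale in Neonatal1, Neonatal2 and Neonatal3. On the same scale DNMT1 stood at 1.12, 1.28 and 1.31, UHRF1 at 2.83, 2.92 and 2.18, and EZH2 at 1.32, 0.59 and 1.00. DNMT1 was thus lowest in the neonatal library with the lowest S phase level, and EZH2 was highest there. Their part in the rise of the enzymes was not tested.

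Of 6 measured neutrophil markers, 3 were called higher (S100A8, S100A9 and S100A12), against 5.41% of all mRNAs. The summed FPKM of the 6 markers was 83.8 to 156 before birth and 844 to 1317 after it. ELANE, an enzyme of immature neutrophils, was listed at 0 in every neonatal library and passed the limit of 0.5 FPKM only through fetal libraries. Of 7 mesenchymal markers, the smooth muscle genes ACTA2 and TAGLN were called higher. ELN was lower in each neonatal library, without a call (limma adjusted p = 0.243). Summed FPKM of the list was between 1166 and 1470 before birth and between 2093 and 2840 after it. The calls of ACTA2 and TAGLN were lost with the replicate block and with several libraries left out. None of the 7 macrophage, 9 lymphocyte, 7 erythroid, 7 endothelial and 11 epithelial markers was called in limma, with 4, 2, 2, 3 and 3 at an unadjusted p under 0.05, which 24.2% of all mRNAs reached. Of the macrophage markers, 6 were higher and 1 lower after birth, with a median log2(FC) of 0.84. CD68 was the nearest of them to a call (log2(FC) 1.25, limma adjusted p = 0.0506). Before and after birth, summed FPKM was 268 to 639 and 474 to 1138 for the macrophage markers, 8.71 to 9.95 and 4.60 to 16.1 for the lymphocyte markers, and 2907 to 9034 and 3013 to 4577 for the erythroid markers. It was 476 to 601 and 649 to 888 for the endothelial markers and 5509 to 6403 and 7156 to 12817 for the epithelial markers, without overlap for these last lists. The endothelial markers did not move together: CLDN5 was higher in each neonatal library, KDR and EMCN were lower in each, and the median log2(FC) of the list was -0.10. Among the epithelial markers SFTPC made up most of the sum, and EPCAM and SCGB1A1 were lower in each neonatal library. The part of these cells in the results was not tested.

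The mRNAs whose levels ran closest to DNMT1 over the 6 libraries, among 8711 with a symbol and a mean of at least 1 FPKM, were S100A12, SEMA7A and MYO1F (Pearson r = 0.999, 0.999 and 0.998). For UHRF1 they were SEC14L1, GMIP and FURIN (r = 0.999, 0.999 and 0.997). These are descriptions over 6 libraries in 2 groups, and 478 and 277 mRNAs had r above 0.95 with DNMT1 and UHRF1. S100A12, a calgranulin, had 94.3, 43.1 and 37.0 FPKM in the fetal libraries and 532, 761 and 889 FPKM in the neonatal libraries. The order of the libraries was that of DNMT1, which largely follows from the choice of S100A12 as the closest mRNA.

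**Figure D5:**
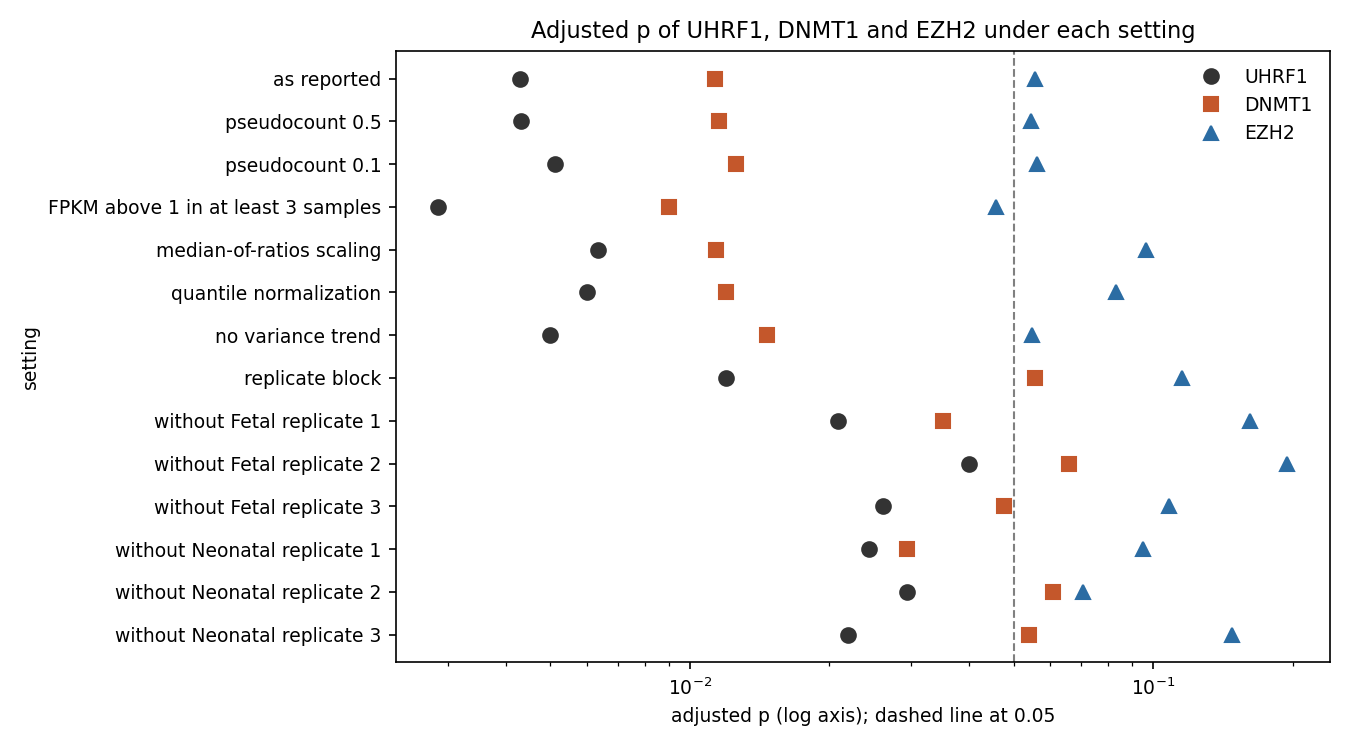
Adjusted p (horizontal log axis, dashed line at 0.05) of UHRF1, DNMT1 and EZH2 as reported and under 13 alternative settings (vertical axis). UHRF1 stays left of the line throughout, DNMT1 crosses it in 4 settings and EZH2 reaches it in 1.

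Imprinted and HOX genes, loci known for regulation by DNA methylation or Polycomb, mostly gave no call. The same held for all mRNAs, of which 6.87% were called. Of 12 measured imprinted genes, MEST alone was called, from 2.55, 3.30 and 2.83 FPKM to 9.46, 9.48 and 5.52 FPKM (log2(FC) 1.203, limma adjusted p = 0.0302). It was not called after median-of-ratios scaling (limma adjusted p = 0.0618), after quantile normalization or with the replicate block, and only the omission of Neonatal3 left the call in place among the 6 libraries. IGF2, H19 and CDKN1C were not matched. None of 12 measured HOX genes was called in limma, and 1 had an unadjusted p under 0.05, against 24.2% of all mRNAs. The most abundant, HOXA5, had 15.6 ± 3.79 and 20.5 ± 2.69 FPKM (SD, n = 3 each; limma adjusted p = 0.330).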

How the data were processed

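Lung RNA of 3 fetal and 3 neonatal piglets was sequenced by the authors from strand-specific Ribo-Zero libraries. The deposited values are FPKM, which the authors computed with Cufflinks 2.2.1 after alignment by TopHat 2.1.0 to the Sscrofa10.2 genome; all 14579 mRNAs exceeded 0.5 FPKM in at least 1 sample. The table of long noncoding RNAs was not used here. The files hold no counts per gene, so no counting interval is given. Symbols came from a reference table for 9478 identifiers and from a supplementary list of the paper, held in part and read for names alone, for 362 more.

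Differences were fitted on log2(FPKM + 1) in limma 3.58.1 (R 4.3.3) with a variance trend, adjusted over all mRNAs. Pairs of genes were compared by exact permutation tests in scipy 1.17.1. The fit was tested on simulated data in which 200 of 14579 genes were changed. It called 0 of these at a change of 1 on the log2 scale, 161 at 2 and 193 at 4. Unchanged genes gave 0, 8 and 19 calls. In the data 1001 mRNAs were called, so the adjustment was less strict there than in the simulation. Changes near 1 were called in the data, such as that of HELLS at 1.04 (limma adjusted p = 0.0207). The simulated counts thus do not give the power of the reported fit. A missing call still does not show that a gene was unchanged. Alternatives were pseudocounts of 0.5 and 0.1, a minimum of 1 FPKM in 3 or more samples, scaling by median-of-ratios or quantiles, no variance trend, a replicate block and leaving out each sample.

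The members and lists were chosen with earlier results of these data known. Named were all members, called genes of the lists (up to 6 each way), preset partners such as EZH1, TDG and KDM6A, and the 3 mRNAs closest to each called member; SFTPC, DNMT3L, the MBD genes, IDH1, IDH2, MAT2A, PHF1, MTF2, CBX2, PHC2, PHC3, BAP1 and the markers named were chosen after their values were seen. No sequence of the members is given here.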

Additional observations from a re-analysis of the deposited data

How the results depend on the processing

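Same-numbered piglets came from different sows, and their deviations from the group means correlated by -0.04, -0.0043 and 4.7e-04 over all mRNAs, so the replicate numbers share only a number. With the replicate block, 401 mRNAs were called in place of 1001, 1 of the 8 enzymes (UHRF1) in place of 2, and 4 genes of the partner lists in place of 7. With 1 sample left out, 196 (without Fetal2) to 944 (without Neonatal1) mRNAs were called, 1 or 2 of the enzymes, and 0 to 5 genes of the partner lists. Without Fetal1, Fetal3, Neonatal2 and Neonatal3 the counts over all mRNAs were 304, 397, 255 and 308. Fewer samples enter these fits; the cause of each change was not tested. Scaling moved the share of calls that were higher in the neonatal group from 78.8% to 66.0% (median-of-ratios) and 57.9% (quantile). The signs that turned were those of uncalled values: DNMT3A, at -0.026 and -0.045 under these scalings, SUZ12, from -0.23 to 0.16 with 1 sample left out, BMI1, from -0.22 to 0.064, and DNMT3B relative to DNMT3A, from -0.055 to 0.45. UHRF1 kept its direction and call under all 13 alternatives, and DNMT1 its direction under all 13 and its call in 9. EZH2 relative to EZH1 and DNMT1 relative to DNMT3A kept their direction in all 11 alternatives run for them, and their exact test cannot pass 0.05 with 3 samples a group. The pairs with UHRF2 and TET1 were not run, since neither was matched. Without counts per gene, precision at low FPKM rests on the spread between piglets.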
